A study of Mus musculus with 4 samples.

Results

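Butyrate is a short-chain fatty acid made in the colon when bacteria ferment dietary fibre. It is a main fuel of colonocytes, a ligand of the receptors FFAR2 and FFAR3, and an inhibitor of histone deacetylases, enzymes that remove acetyl groups from histones and other proteins. The genes described here are the expressed genes whose mRNA level was higher with butyrate than without it at both 48 h and 72 h in mouse colonic organoids, which are cultures of colonic epithelium grown in a gel as stem cells with their progeny. There were 176 such genes among 11766 expressed genes and 36144 gene names. They were chosen by the measured values themselves. Counts were converted to CPM, the count of a gene in each 1000000 counts of its library, an expressed gene had more than 10 counts in at least 1 untreated library and a mean of 2 CPM or more over the 4 libraries, and the log2 ratio of butyrate over untreated, taken after 0.05 CPM was added to both sides, had to reach 1, a 2-fold difference, at 48 h and again at 72 h. Names that had been turned into calendar dates or occurred more than once were dropped. The size of the ratios at 48 h and 72 h is therefore what selected the genes and is given as a description.

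The 4 libraries were untreated at 48 h, 2 mM sodium butyrate for 48 h, untreated at 72 h and 2 mM sodium butyrate for 72 h, with 1 library for each condition. All organoids were at passage 3 and, by the labels, came from a wild-type male mouse aged 24 weeks, whereas the study describes the organoids of this experiment as Hes1-GFP, a reporter line for the Notch target Hes1. Untreated and treated cultures shared a crypt medium with EGF, Noggin, R-spondin, the Wnt pathway activator CHIR99021 and Y-27632, so all levels are those of colonic epithelium under these factors. Each condition is 1 culture, and no replicate error could be estimated. No test was run, and the 95% intervals given cover counting error only. Library totals were between 20790225 and 24207840 counts, and 3 counts, the most that a count of 0 allows, corresponded to between 0.124 and 0.144 CPM. All 14 markers of colonic epithelium were expressed, with Epcam at 31138, 33929, 30764 and 25463 counts in the order untreated and butyrate at 48 h, then untreated and butyrate at 72 h. This order is kept throughout.

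At 48 h, 489 expressed genes (4.16%) reached a log2 ratio of 1, at 72 h 309 did (2.63%), and 176 (1.5%) did so at both times. The overlap of the times is what defines the set, and it is described here from both sides. Of the 489 genes raised at 48 h, 36.0% were also raised at 72 h, against 2.63% of all expressed genes, and 86.1% had a ratio above 0 at 72 h, against 57.9% of all expressed genes. Their median log2 ratio at 72 h was 0.74, against 0.05 for all expressed genes. In the opposite order, 57.0% of the 309 genes raised at 72 h were raised at 48 h, against 4.16% of all expressed genes. At 48 h, 86.4% of them had a ratio above 0, and their median was 1.31, against 47.7% and −0.02 for all expressed genes. The filter on mean level uses all 4 libraries and bears on these shares. Without it, 30.1% of the genes raised at 48 h were raised at 72 h, against 3.93% of all genes, and 46.5% in the opposite order, against 6.07%. Of the 489 genes raised at 48 h, 8 (1.64%) were at −1 or less at 72 h, near the 1.5% of all expressed genes, and of the 309 raised at 72 h, 4 (1.29%) were at −1 or less at 48 h, against 1.61%.

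**Figure D1:**
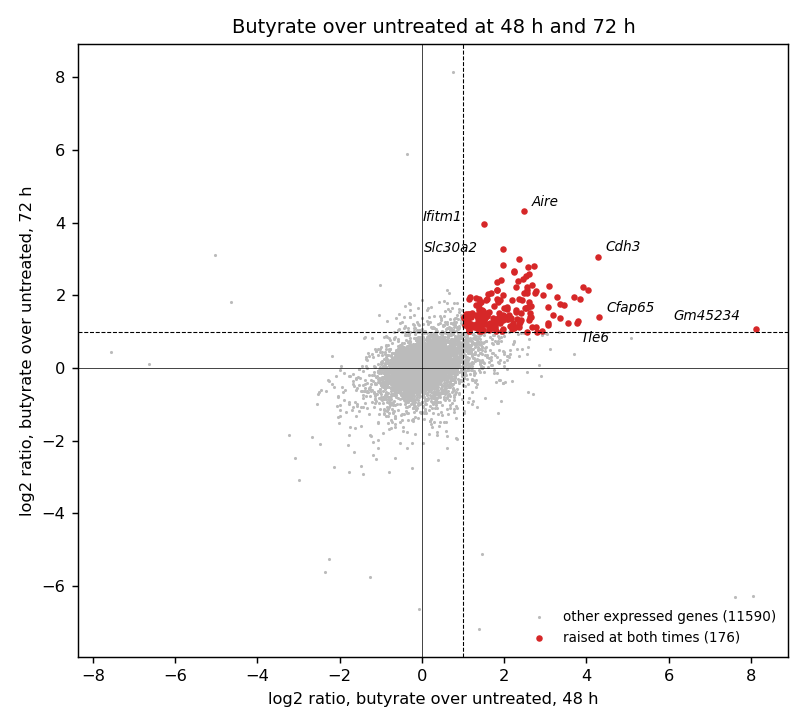
Each point is an expressed gene, with its log2 ratio of butyrate over untreated at 48 h on the horizontal axis and at 72 h on the vertical axis. Red points are the 176 genes at or beyond the dashed lines at 1 on both axes, which chose them, and grey points are the other 11590 expressed genes. Cdh3 stands high on both axes, Aire and Ifitm1 are displaced towards 72 h, and Tle6, Cfap65 and Gm45234 towards 48 h.

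Among the 176 genes the median log2 ratio was 1.88 at 48 h and 1.43 at 72 h, and the smaller of the 2 ratios was at least 2 in 23 genes, below 1.5 in 113 and below 1.1 in 29. The counting interval lay above 0 at both times in all 176 genes, and its lower bound reached 1 at both times in 84. Just inside the threshold were H2-Q1, Plod1, S100a4 and Bco1, with smaller ratios between 1.004 and 1.011, and just outside it were Tubg2 (0.999), Reep1 (0.999), Slc16a3 (0.998) and Slc25a45 (0.997). In 173 of the 176 genes both butyrate libraries had a higher CPM than both untreated libraries, which a 2-fold difference within each time almost fixes, and among all expressed genes this was so in 22.6%. The exceptions were Gm1821, Gpnmb and Zfp365, which were higher at 72 h than at 48 h in untreated cultures.

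The raised genes were mostly genes of low CPM, a scale that does not correct for gene length. Their mean CPM ran from 2.00 to 94.4 with a median of 4.94, against a median of 32.1 CPM over all expressed genes. Of the expressed genes between 2 and 5 CPM, 7.64% (89 of 1165) were raised at both times, and the share was 3.60% between 5 and 10 CPM, 1.49% between 10 and 20 CPM and 0.451% between 20 and 50 CPM. Above 50 CPM there was 1 raised gene among 4204 expressed genes, Lama5. These means include the butyrate libraries, so a gene low without butyrate could pass the 2 CPM minimum through the libraries where it was high, which enriches the lowest range for raised genes. A mean of 4 CPM over the untreated libraries passes the minimum by itself, and 121 of the 176 genes were below it. By that untreated mean, a split chosen after the data were seen, 42 of 1475 expressed genes (2.85%) between 4 and 10 CPM were raised at both times, 12 of 1809 (0.663%) between 10 and 20 CPM, 1 of 3243 between 20 and 50 CPM and 0 of 4247 above. Together the 176 genes took 0.0701% of all counts in untreated and 0.271% in butyrate-treated organoids at 48 h, and 0.0632% and 0.195% at 72 h. The share was higher in each butyrate library than in either untreated library, which at each single time follows from the choice of the genes, and remained well under 1% of the mRNA counted.

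The gene with the largest ratio at both times, measured by the smaller of the 2, was Cdh3, which encodes P-cadherin, a calcium-dependent adhesion protein of basal and placental epithelium. Its counts were 12, 286, 15 and 118, and its CPM were 0.556, 11.8, 0.636 and 5.68. The untreated libraries were close to each other and both butyrate libraries stood far above them. The log2 ratio was 4.29 at 48 h (3.58 to 5.38) and 3.06 at 72 h (2.38 to 4.04), and the log2 ratio of 72 h over 48 h between the butyrate libraries was −1.05. Of the 19 expressed cadherin and desmosome genes it was the only one raised at both times, and the median of that list was 0.07 at 48 h and −0.04 at 72 h. Of all expressed genes 1.5% were raised at both times, which is fewer than 1 gene in each list named here except the solute carriers and ribosomal proteins, so that a count of 0 or 1 in these lists is near the background. Fscn1, which encodes fascin, a protein that bundles actin filaments, had CPM of 1.07, 6.36, 0.763 and 4.67. Rdx, which encodes radixin, a linker of actin to the plasma membrane, had 0.742, 3.72, 0.848 and 5.72 CPM. Both had non-overlapping pairs of levels, with ratios of 2.52 and 2.54 for Fscn1 and 2.25 and 2.68 for Rdx.

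**Figure D2:**
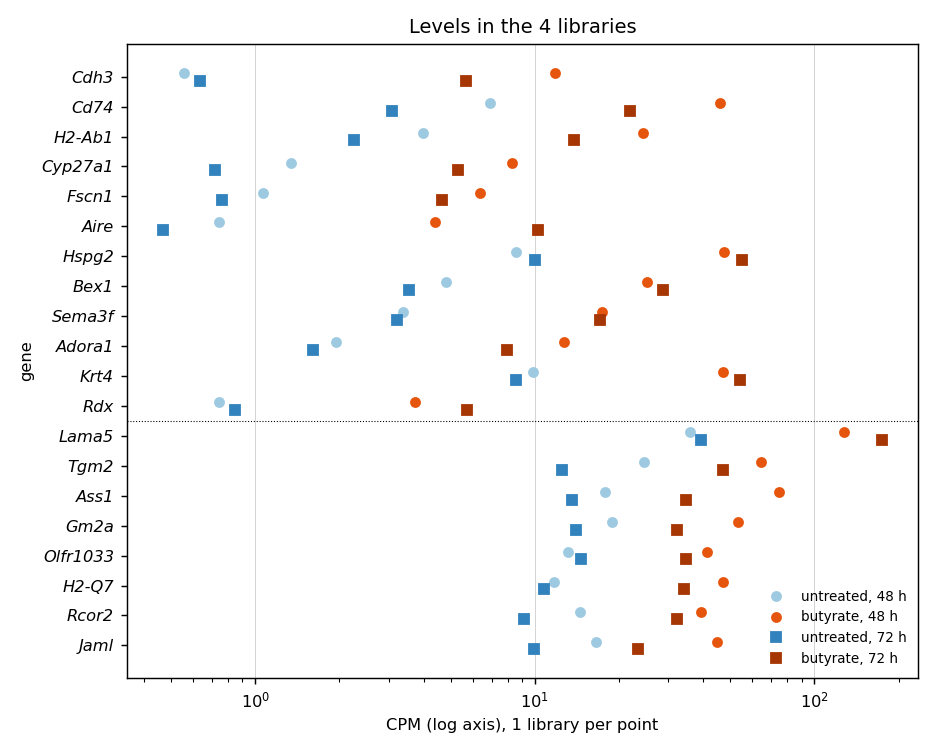
CPM on a log axis in each of the 4 libraries, for the 12 genes with the highest smaller ratio (above the dotted line) and for those of the 10 genes with the highest mean CPM that are not among them (below it). Circles are libraries at 48 h and squares at 72 h, blue is untreated and orange or brown is butyrate. Each point is a single library, and for every gene shown both butyrate points lie to the right of both untreated points.

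Among the raised genes were 6 of antigen presentation. By the smaller ratio, which chose the set, Cd74 and H2-Ab1 had ranks 2 and 3 of 176, whereas H2-Q6, Psmb8 and H2-Q7 had ranks 21, 41 and 50 and H2-Q1 rank 173. Peptides from proteins taken up by a cell are shown to helper T cells on MHC class II, whose invariant chain is encoded by Cd74 and one of whose beta chains is encoded by H2-Ab1, and peptides from a cell's own proteins are shown on MHC class I. Cd74 had 6.91, 45.9, 3.10 and 21.8 CPM, and H2-Ab1 had 3.99, 24.5, 2.25 and 13.9 CPM. For both genes the untreated and the butyrate level at 72 h were each lower than at 48 h, so that the ratio was almost the same at the 2 times, with 2.72 (2.49 to 2.99) and 2.80 (2.46 to 3.20) for Cd74 and 2.60 (2.29 to 2.96) and 2.60 (2.20 to 3.07) for H2-Ab1. These were 2 of the 4 expressed genes of the class II list (1.5% of all expressed genes were raised at both times). The other two were H2-DMa, which encodes a chain of the peptide-loading factor, with ratios of 2.07 and 0.33, and the protease gene Ctss, with −0.26 and −0.71. The alpha chain gene H2-Aa, whose product pairs with that of H2-Ab1, was counted 6, 5, 5 and 2 times and did not enter the expressed genes. Nor did H2-Eb1, at 8, 74, 4 and 30 counts, or Ciita, the class II transactivator, at 7, 15, 1 and 9 counts. H2-DMb1, at 18, 49, 4 and 45 counts, did not enter either and was higher with butyrate at both times.

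Class II genes are known from antigen-presenting leukocytes, and 14 immune cell markers were read beside them. Adgre1 and Tyrobp had no count, Itgax at most 1, Cd3e and Lyz2 at most 3 and Cd79a at most 5, and Ptprc had 5, 6, 15 and 6. The myeloid integrin gene Itgam had 48, 36, 41 and 43 counts, and Csf1r had 1, 2, 0 and 16. Cd68, which is itself among the 176 genes, had 128, 1309, 172 and 420 counts. The 14 markers summed to 9.04, 58.1, 10.3 and 24.4 CPM with Cd68 and to 3.11, 4.05, 3.01 and 4.185 CPM without it. Laptm5 (4, 26, 3 and 11 counts), Coro1a (2, 20, 2 and 6 counts) and, on few counts, Fcer1g (3, 6, 0 and 4) were also higher in the butyrate libraries, and the part of these markers in the class II result was not tested. In bulk RNA, more cells that express a gene and more of its mRNA per cell cannot be told apart.

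The median of the 20 expressed class I antigen presentation genes was 0.52 at 48 h and 0.16 at 72 h, against −0.02 and 0.05 for all expressed genes. Of these 20 genes 4 were raised at both times, against 1.5% of all expressed genes. They were H2-Q6 (4.27, 24.1, 3.90 and 16.6 CPM), H2-Q7 (11.7, 46.9, 10.8 and 34.2 CPM), H2-Q1 (3.25, 8.59, 1.91 and 3.90 CPM) and Psmb8 (43, 508, 44 and 135 counts), a catalytic subunit of the immunoproteasome. All 4 had a larger ratio at 48 h than at 72 h, and the distance was largest for Psmb8, with 3.36 (2.95 to 3.88) against 1.77 (1.30 to 2.32). The classical class I genes H2-K1 and H2-D1, at far higher counts, had ratios of 0.48 and 0.48 at 48 h and of 0.10 and −0.04 at 72 h. The peptide transporter genes Tap1 and Tap2 reached 0.89 and 1.46 at 48 h and 0.71 and 0.48 at 72 h. Of the other Psmb genes on the list, Psmb9 had ratios of 1.29 and 0.79, whereas Psmb10 was lower with butyrate, at −0.87 and −0.48. Erap1 was lower as well, at −0.50 and −0.19. Of the 31-base stretches of their transcripts, 48.2% in H2-Q6, 60.8% in H2-Q7 and 75.9% in H2-Q1 occurred in no other gene of the annotation, so the authors' quantification could have divided reads among the H2-Q genes, and the levels of single H2-Q genes are uncertain.

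H2-Q2 and H2-Q4 were also expressed and were not raised at both times. Their ratios at 48 h and 72 h were 0.89 and −0.42 for H2-Q2 and −0.23 and 0.22 for H2-Q4. The 3 raised H2-Q genes lie in the Qa region of the major histocompatibility complex on chromosome 17 (GRCm38), with H2-Q1 at chr17:35320405-35325099, H2-Q6 at chr17:35424850-35430055 and H2-Q7 at chr17:35439155-35443773, all on the plus strand. H2-Q6 and H2-Q7 were 9.10 kb apart, and H2-Q1 ended 99.8 kb before H2-Q6. Their promoter windows, from 250 bases before to 50 bases after the start of the gene, are shown because these neighbours were both raised and read almost alike. In a local alignment, 254 of 261 columns (97.3%) held the same base. The windows of H2-Q2 and H2-Q4 were not aligned. The sequences are RefSeq's (GRCm38.p6), at chr17:35424600-35424899 for H2-Q6 and chr17:35438905-35439204 for H2-Q7, and capitals mark the letters CCAAT on either strand, found 2 times in each window and in 38.2% of the 22862 genes with a single window of this length.
H2-Q6: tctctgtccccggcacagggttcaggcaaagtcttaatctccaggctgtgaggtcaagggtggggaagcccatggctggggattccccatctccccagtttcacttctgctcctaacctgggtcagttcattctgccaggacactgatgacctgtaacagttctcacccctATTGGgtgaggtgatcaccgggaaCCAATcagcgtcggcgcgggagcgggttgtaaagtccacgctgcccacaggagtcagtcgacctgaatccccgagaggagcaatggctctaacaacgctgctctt
H2-Q7: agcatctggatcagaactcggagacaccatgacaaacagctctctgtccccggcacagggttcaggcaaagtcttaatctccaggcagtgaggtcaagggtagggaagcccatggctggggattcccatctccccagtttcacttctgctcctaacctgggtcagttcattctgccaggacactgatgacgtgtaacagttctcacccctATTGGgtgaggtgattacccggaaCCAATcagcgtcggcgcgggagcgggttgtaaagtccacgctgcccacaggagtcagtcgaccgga

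Psmb8 and H2-Ab1, 56.2 kb apart in the same complex, were another neighbouring pair. In all, 10 pairs of raised genes had gene bodies within 100 kb of each other, among them Slc30a2 and Extl1 (1.89 kb apart), Ccdc159 and Plppr2 (1.16 kb), Fstl3 and Palm (10.9 kb), Sh3bp1 and Lgals1 (14.7 kb) and Nova2 and Mypop (25.9 kb). Over all raised genes, 20 of 796 expressed neighbours within that distance (2.51%) were themselves raised, against 1.5% of all expressed genes. By autosome, the share of expressed genes that were raised ran from 0.232% on chromosome 13 (1 of 431) to 2.80% on chromosome 15 (13 of 464), and it was 2.29% on chromosome 17 (14 of 612).

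Interferon-induced genes are switched on by antiviral signalling, and 3 of the 16 expressed genes of that list were raised, namely Ifit2, an inhibitor of translation of viral RNA, Bst2, which tethers virus particles to the cell surface, and Ifi27. The share raised at both times over all expressed genes was 1.5%. The list median was 0.05 at 48 h and 0.11 at 72 h. Ifit2 had 1.58, 4.50, 1.65 and 5.00 CPM, and Bst2 had 6.91, 18.0, 4.45 and 11.4 CPM. Irf7, Oas1a and Irf1, on the same list, had ratios of 0.73, 0.53 and 0.04 at 48 h and of 0.19, 0.03 and −0.07 at 72 h. Ifitm1, a membrane protein that restricts virus entry and was not on the list, had 37, 121, 19 and 275 counts, with ratios of 1.52 (1.00 to 2.12) and 3.96 (3.37 to 4.79). It had the largest excess at 72 h over 48 h of all 176 genes, 2.44 on the log2 scale.

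The genes of basement membrane among the 176 were Lama5 and Hspg2. The basement membrane is the sheet of laminin, collagen IV, nidogen and perlecan on which epithelium rests. Lama5, the laminin alpha 5 chain, had 36.0, 127, 39.3 and 175 CPM, a ratio of 1.82 (1.71 to 1.94) at 48 h and of 2.15 (2.05 to 2.26) at 72 h. Hspg2, the heparan sulfate proteoglycan perlecan, had 8.53, 47.5, 10.0 and 55.2 CPM, and ratios of 2.47 (2.25 to 2.71) and 2.46 (2.26 to 2.67). In both genes the butyrate level at 72 h was the highest of the 4 libraries. These were 2 of the 18 expressed genes of the list, against 1.5% of all expressed genes. The list median was 0.35 at 48 h and 0.46 at 72 h. At a single time the list had 4 raised genes at 48 h (Hspg2, Lama5, Nid1 and Col18a1) and 5 at 72 h (Hspg2, Lama5, Lamb1, Fbln1 and Lamb2), against 4.16% and 2.63% of all expressed genes. The laminin chain that pairs with Lama5 and Lamb1 or Lamb2, encoded by Lamc1, had ratios of 0.34 and 0.15, and Lama3, the alpha chain of laminin-332, had −0.63 and −0.75. Bcam, which encodes a receptor of the laminin alpha 5 chain, was among the 176 genes with 161, 863, 244 and 461 counts.

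The promoter windows of Lama5 and Hspg2, chosen because both encode basement membrane components, are shown with the letters GGGCGG, the GC box, in capitals on either strand. The box occurred 5 times in the window of Hspg2 (chr4:137468553-137468852, plus strand) and 4 times in that of Lama5 (chr2:180225810-180226109, minus strand, printed 5′ to 3′ along the gene), and in 35.2% of the 22862 genes with a single window. A match is a description of the letters and says nothing on whether a factor binds there. The windows were 70.3% and 72.7% G or C, against a median of 52.3% over those genes. Only 134 of the 176 genes (76.1%) had a window in the RefSeq table, less than the 80% needed, so a comparison of promoter composition over the whole set was void.
Hspg2: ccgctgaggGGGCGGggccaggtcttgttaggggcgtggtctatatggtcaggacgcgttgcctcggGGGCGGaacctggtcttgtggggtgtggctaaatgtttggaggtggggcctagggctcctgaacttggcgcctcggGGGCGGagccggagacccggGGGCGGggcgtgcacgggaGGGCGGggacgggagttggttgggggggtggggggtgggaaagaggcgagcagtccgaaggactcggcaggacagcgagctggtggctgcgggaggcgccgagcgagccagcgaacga
Lama5: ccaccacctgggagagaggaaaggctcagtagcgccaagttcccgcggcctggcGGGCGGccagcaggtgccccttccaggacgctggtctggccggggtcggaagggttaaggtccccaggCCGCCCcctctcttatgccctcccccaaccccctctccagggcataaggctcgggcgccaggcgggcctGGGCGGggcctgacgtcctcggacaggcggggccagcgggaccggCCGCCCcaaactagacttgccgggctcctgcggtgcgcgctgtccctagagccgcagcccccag

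Further matrix genes among the 176 were Tgm2, which encodes the protein cross-linking enzyme transglutaminase 2 (24.5, 64.3, 12.5 and 47.2 CPM), and the collagen hydroxylase gene Plod1. P3h4, the fibril collagen gene Col27a1 (ratios 1.03 and 1.40, 1 of 7 expressed collagens), the protease gene Mmp17, Ltbp3 and Ltbp4 were others. The products of Ltbp3 and Ltbp4 hold TGF-beta in the matrix. Ltbp3 had 28, 276, 27 and 117 counts and ratios of 3.09 (2.57 to 3.75) and 2.25 (1.68 to 2.96). Ltbp3 and Ltbp4 were 2 of 25 expressed BMP and TGF-beta genes, against 1.5% raised among all expressed genes. The median of that list was −0.13 at 48 h and 0.08 at 72 h. Matrix genes are also known from stromal cells, whose markers were read beside them. The 10 fibroblast markers summed to 14.9, 16.7, 16.9 and 18.2 CPM, with Col3a1 and Lum at 0, Col1a2 and Dcn at most 2 counts, and Postn at 15, 53, 12 and 44 counts. The 7 endothelial markers summed to 3.52, 5.78, 3.60 and 4.57 CPM, with Cdh5, Cldn5 and Emcn at most 1 count and Vwf at 43, 90, 27 and 62. Postn and Vwf were thus higher in both butyrate libraries, and their part in the levels of the matrix genes was not tested.

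To describe the genes beyond the lists, 112 of the 176 were put into 18 groups by what their products are known to do. The groups were written after the values were seen, and the remaining 64 genes were left ungrouped. The median ratio of a group ran from 1.49 (interferon-induced and innate signalling) to 2.67 (secreted regulators) at 48 h and from 1.24 (cell surface and adhesion) to 1.92 (antigen presentation) at 72 h. Of all 176 genes 71.6% had the larger ratio at 48 h, so small groups entirely of that kind, such as the 6 secreted regulators, 5 conjugation and redox enzymes and 4 genes of amino acid metabolism and transport, are not far from the whole set. More genes had the larger ratio at 72 h in 4 groups, with 3 of 4 Notch and Wnt genes, 3 of 4 guidance and growth cues, 5 of 7 transport genes and 5 of 9 transcription genes.

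**Figure D3:**
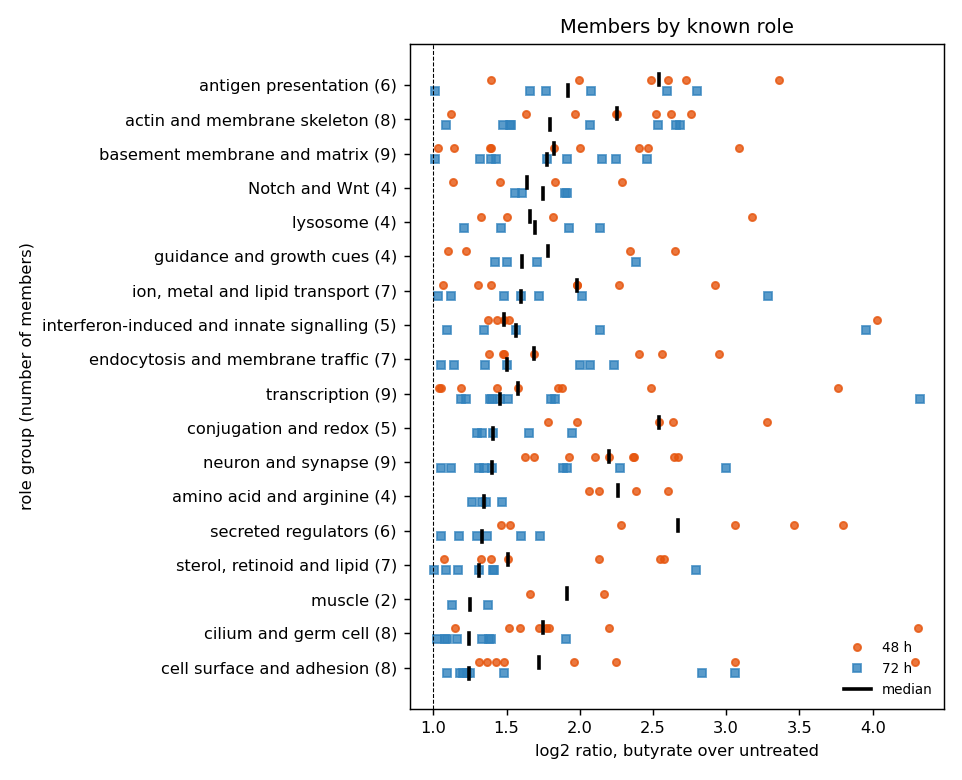
Log2 ratio of butyrate over untreated for 112 of the 176 genes, in 18 groups by known role, ordered by their median at 72 h. Circles are 48 h, squares 72 h, and black bars the medians of each group. The dashed line at 1 is the threshold that chose the genes, so that no point lies to its left.

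The cytoskeletal genes were Krt4, Fscn1, Rdx, the villin-like gene Vill, the tropomyosin gene Tpm2, the spectrin gene Sptb, the myosin gene Myo7a and the actin regulator Wipf3, with group medians of 2.25 at 48 h and 1.80 at 72 h. Krt4, a keratin of stratified oesophageal and anal epithelium, had 9.88, 47.2, 8.57 and 54.2 CPM, with ratios of 2.25 (2.05 to 2.48) and 2.65 (2.44 to 2.88). It was the only one of 11 expressed keratins raised at both times. The other 7 markers of squamous epithelium were read beside it. The basal markers Krt5 and Trp63 had at most 4 counts in any library, Krt13, the usual partner of Krt4, had 2, 5, 1 and 0, and Krt14 had 11, 108, 9 and 27. The desmoglein gene Dsg3 had 38, 97, 33 and 44 counts, and the cornified envelope genes Sprr1a and Lor had 2436, 3978, 5749 and 2813 and 83, 64, 152 and 31. Krt14 and Dsg3 were thus higher with butyrate at both times, Sprr1a at 48 h only, and Lor at neither time. The endocytosis genes Dnm1 (115, 1006, 124 and 442 counts), Fcho1, Hip1, Cavin1, Ehd2, Rab11fip5 and the receptor gene Cubn had medians of 1.69 and 1.5.

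Genes best known from neurons formed a group of 9, with medians of 2.20 and 1.40. The 9 neuron and glia markers read beside them summed to 18.5, 14.2, 21.8 and 13.8 CPM, a sum lower with butyrate at both times. Bex1, a small adaptor protein gene on the X chromosome, had 4.82, 25.1, 3.56 and 28.8 CPM and ratios of 2.37 (2.08 to 2.70) and 3.00 (2.68 to 3.36). Of its 31-base stretches 60.0% were found in no other gene, and the gene it shared most with was Bex4. It was 1 of 26 expressed genes of the neuronal list, whose median was −0.03 at 48 h and −0.34 at 72 h. Adora1, the adenosine A1 receptor, had 42, 307, 38 and 166 counts, and Slc17a8, the vesicular glutamate transporter VGLUT3, had 34, 180, 43 and 143. The guidance cues Sema3f (3.38, 17.4, 3.22 and 17.1 CPM) and Efna3 (6.12, 38.7, 4.96 and 16.4 CPM) were each the only raised gene of their families, 1 of 22 expressed semaphorins and plexins and 1 of 13 Eph receptors and ephrins. Sema3f had ratios of 2.34 and 2.39, and its levels at 48 h and 72 h were almost the same within each treatment.

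Genes of cilia and germ cells formed a group of 8, with medians of 1.75 and 1.25. A separate list of 21 germline genes held only 1 expressed gene, which was not raised at both times. Cfap65, a protein of the sperm flagellum, had 11, 268, 29 and 69 counts, Dnaaf3 encodes an assembly factor of dynein arms, Tekt5 a tektin of sperm and Tdrkh a partner of PIWI proteins. Muscle genes were Tnni1, the slow troponin I (32, 165, 15 and 36 counts), and the myosin light chain gene Myl6b. Of the 64 ungrouped genes, 2 carry names of olfactory receptors (Olfr1033 at 283, 1001, 344 and 724 counts, and the pseudogene Olfr1372-ps1) and 1 that of a vomeronasal receptor pseudogene (Vmn2r-ps126).

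The ungrouped genes had ratios between 1.09 and 3.91 at 48 h, apart from Gm45234, which is described with its floor, and between 1.005 and 2.43 at 72 h, and 51 of the 64 had the larger ratio at 48 h. Signalling genes among them were Pde4a, a phosphodiesterase that degrades cyclic AMP (22, 176, 33 and 65 counts), Rasal1, which switches off Ras (11, 159, 18 and 39 counts), Spred3, an inhibitor of Ras-MAP kinase signalling (133, 439, 155 and 321 counts), the membrane progestin receptor gene Paqr7 and the orphan receptor gene Gprc5b. Enzymes and repair genes among them were the deubiquitinase gene Usp2 (31, 214, 28 and 81 counts), the GMP reductase gene Gmpr, the renin-binding epimerase gene Renbp and the recombination gene Rad51c (74, 202, 80 and 156 counts). Tmem37, a subunit-like relative of calcium channels, had 13, 237, 21 and 90 counts and ratios of 3.91 and 2.22.

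Transcription genes were Aire, Gata4, Nr2e3, Rcor2, Sall2, Glis2, Zfpm1, Tle6 and Snai3. Aire, which drives the expression of tissue-restricted antigens in thymic epithelium, had 16, 106, 11 and 214 counts, and ratios of 2.48 (1.80 to 3.42) and 4.32 (3.60 to 5.49), the highest ratio of the set at 72 h. Its butyrate level was higher at 72 h than at 48 h (1.22) and its untreated level was lower (−0.62). Gata4, a factor of the small intestine and stomach that is little expressed in colon, had 23, 98, 61 and 155 counts and was higher at 72 h than at 48 h in both treatments. Tle6, a relative of the Groucho corepressors, had 51, 791, 57 and 119 counts, and Rcor2, a corepressor that works with LSD1, had 14.5, 39.4, 9.16 and 32.2 CPM. Of the 17 expressed histone deacetylase genes, 14 linker and variant histone genes and 7 cyclin-dependent kinase inhibitor genes none was among the 176, as the background of 1.5% would give in lists of this size, and 1 histone gene and 1 inhibitor gene were raised at 48 h alone, when 4.16% of all expressed genes were.

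Of the Notch list, 3 of 19 expressed genes were raised, against 1.5% of all expressed genes. The list median was −0.13 at 48 h and 0.04 at 72 h, the latter being −0.01 under either of 2 other scalings. Notch3 encodes a receptor (45, 252, 49 and 129 counts, ratios 2.29 and 1.56), Dtx3 a ubiquitin ligase of the Deltex family (185, 571, 177 and 477 counts, ratios 1.45 and 1.61) and Mfng a fringe glycosyltransferase that modifies Notch receptors (40, 100, 19 and 66 counts, ratios 1.13 and 1.91). The target gene Hes1 had ratios of −0.20 and −0.12, and Notch1, the receptor with the most counts, had −0.67 and 0.30. Of the Wnt target and stem cell list, 2 of 22 expressed genes were raised, Msi1, an RNA-binding protein of crypt stem cells (92, 536, 116 and 388 counts), and Notum, a secreted enzyme that inactivates Wnt ligands (28, 115, 32 and 108 counts). The share over all expressed genes was 1.5%, and the list median was 0.11 at 48 h and 0.52 at 72 h.

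Metabolic genes among the 176 included Cyp27a1, the mitochondrial sterol 27-hydroxylase (29, 200, 17 and 110 counts, ratios 2.58 and 2.79), Cyp26b1 and Bco1, which break down retinoic acid and cleave beta-carotene, Ptges, the prostaglandin E synthase (142, 421, 88 and 208 counts), and Angptl4, an inhibitor of lipoprotein lipase (105, 521, 78 and 156 counts). Angptl4 was the only raised gene of 18 expressed lipid droplet and PPAR target genes. Ass1, argininosuccinate synthase, had 17.9, 74.7, 13.5 and 34.8 CPM, with ratios of 2.06 and 1.36, and shared 43.1% of its 31-base stretches with Gm5424. Gstt1 was 1 of 22 expressed glutathione S-transferases, near the background of 1.5%. Of that family 10 (45.5%) were raised at 48 h, against 4.16% of all expressed genes, and 1 at 72 h. Sult1a1 and Sult4a1 were 2 of 12 expressed glucuronosyltransferases and sulfotransferases, against 1.5% of all expressed genes. The median of that list was 0.29 at the earlier and −0.51 at the later time. None of the 35 expressed genes of fatty acid oxidation and ketogenesis was raised at both times, and their median was 0.26 at 48 h and 0.01 at 72 h.

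Transporters among the 176 included 5 of 195 expressed solute carriers (2.56%, against 1.5% of all expressed genes), at a list median of 0.06 and 0.00. They were the zinc exporter Slc30a2 (49, 221, 15 and 138 counts), the glutamate transporter Slc1a1, the bicarbonate transporter Slc4a8, the phosphate transporter Slc34a2 and Slc17a8. Lysosomal and endosomal genes were Cd68, Gm2a (18.8, 53.5, 14.0 and 32.4 CPM), Gpnmb (15, 44, 51 and 174 counts) and Rragd, a GTPase that signals amino acid supply to mTORC1. Surface proteins besides Cdh3 were Muc1, Prom2, Jaml (16.6, 44.7, 9.97 and 23.4 CPM), Icam1, Cadm4, Bcam and Ptpru. Jaml is an adhesion molecule of leukocytes and epithelium. Icam1 (102, 297, 136 and 273 counts) and Tnfaip2 were 2 of 18 expressed NF-kB list genes, against 1.5% of all expressed genes. Secreted proteins were the coagulation inhibitor Tfpi, Igfbp4, Fstl3, C1qtnf1, Rnase1 and the galectin Lgals1.

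The lists of differentiated cell types contributed no gene to the 176, which in lists of this size is near the background of 1.5%. They held 27 expressed colonocyte, 15 goblet cell, 26 enteroendocrine and 8 tuft cell markers, of which 4, 1, 2 and 1 were raised at 48 h, against 4.16% of all expressed genes, and none at 72 h, against 2.63%. Their medians were 0.31, −0.28, −0.32 and −0.23 at 48 h and −0.29, −0.61, −0.56 and −0.90 at 72 h. No member came from 17 claudin and tight junction genes (−0.24 and −0.19), 24 replication and mitosis genes (0.02 and 0.37) or 78 ribosomal protein genes (0.08 and 0.17), where the background gives about 1. In total 48 of the 176 genes were on at least 1 of the 54 lists and 128 were on none.

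Of the 176 genes, 126 had the larger ratio at 48 h and 50 at 72 h. The difference exceeded 1 on the log2 scale towards 48 h in 34 genes and towards 72 h in 3, Ifitm1, Aire and Slc30a2. From 48 h to 72 h the median log2 ratio of the members was −0.09 in untreated organoids, against −0.08 for all expressed genes. There 105 of the 176 genes (59.7%) were lower at 72 h, against 65.2% of all expressed genes, and 115 (65.3%) stayed within 0.5 of 0, against 90.3%. In butyrate-treated organoids the median was −0.60, against −0.04 for all expressed genes, and 143 of the 176 genes were lower at 72 h than at 48 h, against 54.7% of all expressed genes. These values come from the libraries that chose the genes. The 6 genes with the largest excess at 48 h were Gm45234, Cfap65, Tle6, Lgals1, Rasal1 and Mxra7. Lgals1 had 36, 578, 51 and 112 counts and ratios of 3.80 (3.35 to 4.37) and 1.30 (0.83 to 1.82). Tle6 had ratios of 3.76 and 1.23, and its butyrate level at 72 h was lower than at 48 h at a log2 ratio of −2.50, the lowest of the set. The 6 genes with the largest excess at 72 h were Ifitm1, Aire, Slc30a2, Prom2, Mfng and Vmn2r-ps126. For Slc30a2, Prom2, Mfng and Vmn2r-ps126 the butyrate level differed little between the times (log2 ratios of −0.46, −0.12, −0.37 and −0.33), and the untreated level was lower at 72 h (−1.76, −1.0, −1.15 and −1.10).

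**Figure D4:**
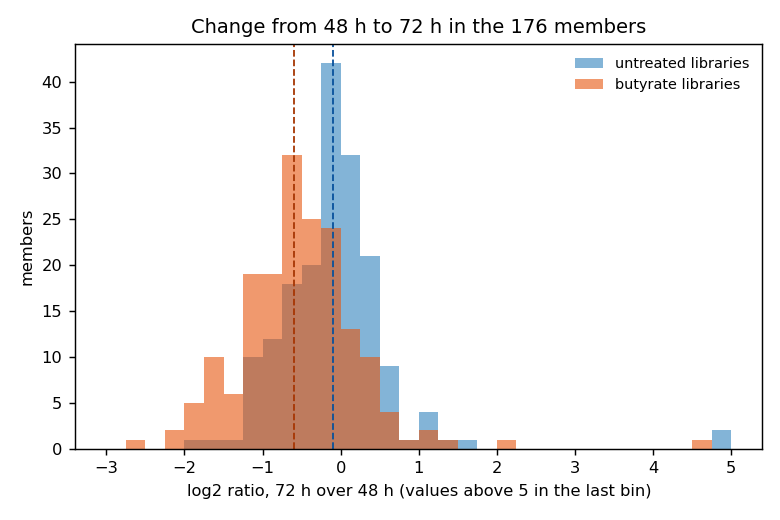
Number of the 176 genes by their log2 ratio of 72 h over 48 h, in untreated (blue) and in butyrate-treated libraries (orange), in bins of 0.25, with dashed lines at the medians of −0.09 and −0.60. The orange distribution is displaced to the left of the blue one, and values above 5 are drawn in the last bin.

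In 2 of the genes the untreated library at 48 h held no count. Gm45234 had 0, 338, 213 and 399 counts and stood 100.4-fold above the floor of 3 counts of the untreated library in the butyrate library at 48 h, with a lower bound of 6.34 for the counting interval of the log2 ratio, while its ratio at 72 h was 1.08 (0.84 to 1.33). Gm1821, a processed pseudogene, had 0, 9, 73 and 209 counts and stood 2.67-fold above the same floor, with a lower bound of 0.81 on the log2 scale. With these genes set against the floor the median ratio at 48 h was 1.86. Of their 31-base stretches 3.21% in Gm45234 and 8.94% in Gm1821 were found in no other gene, and most were shared with Atn1 and with the ubiquitin gene Ubb. Their counts therefore depend on how reads were divided between copies. In 7 more genes less than 50% was unique, namely Rdh16f1 (0%), Rtl8b (14.9%), Selenbp2 (40.7%), Sh3bp1 (40.8%), Khdc1a (41.4%), H2-Q6 (48.2%) and Gm45551 (49.8%). S100a4 (50.8%), Fstl3 (53.3%), Metrn (53.8%), Ass1 (56.9%) and Notum (67.0%) also shared much sequence with another gene, and their counts are uncertain in the same way. The median over the 176 genes was 99.1%, and 135 had 90% or more.

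The rule did not use gene structure or sequence, and the transcripts of the raised genes were rich in G and C. The longest transcript of a raised gene had a median GC content of 55.1% (quartiles 50.7% and 58.1%), against 49.7% (44.8% and 54.4%) for all expressed genes and 50.5% for expressed genes under 10 CPM, the range that holds most of the raised genes, with the mean taken over all 4 libraries. Among expressed genes under 10 CPM, 13 of 599 (2.17%) were raised at both times where GC was under 45%, 18 of 522 (3.45%) between 45% and 50%, 35 of 597 (5.86%) between 50% and 55% and 66 of 635 (10.4%) at 55% or more. The same order was seen at 10 CPM or more, from 3 of 2493 (0.120%) to 24 of 1952 (1.23%). The median ratio of all expressed genes under 10 CPM at 55% GC or more was 0.29 at 48 h and 0.17 at 72 h, against −0.05 and 0.12 under 45% GC, so a displacement with GC was also present, at 48 h, over all expressed genes of low level. Whether GC content acted on these counts in library preparation or quantification was not tested. Genes raised only at 48 h by the rule had a median GC of 53.7%, and genes raised only at 72 h had 50.9%. The raised genes spanned a median of 18.6 kb with 3.90 kb of exons, against 23.8 kb and 4.47 kb for all expressed genes and 17.8 kb and 3.56 kb for those under 10 CPM. By type, 171 were protein-coding, 4 were pseudogenes and Arhgef4 was not matched to a position.

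**Figure D5:**
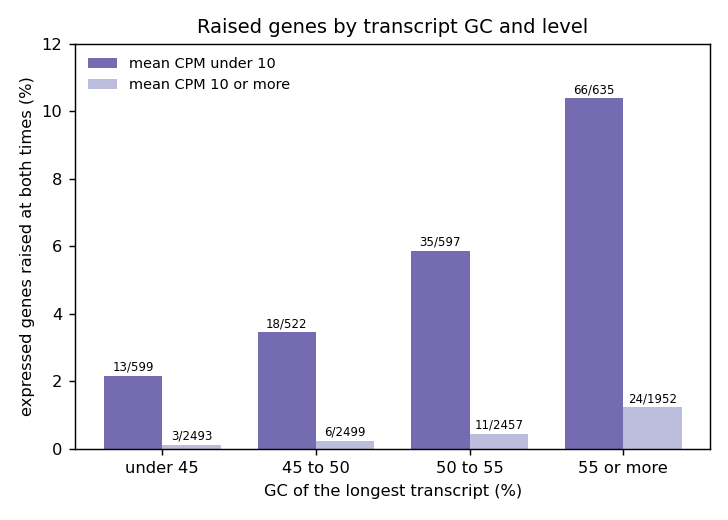
Percentage of expressed genes raised at both times (vertical axis) by GC content of the longest transcript (horizontal axis), for genes with a mean CPM under 10 (dark bars) and of 10 or more (light bars). The numbers above the bars are raised over expressed genes. In both ranges of level the bars are higher at higher GC, from 2.17% to 10.4% and from 0.120% to 1.23%.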

How the data were processed

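RNA from 4 organoid cultures was enriched for poly-A and sequenced, with 1 library per condition. The authors deposited whole-number estimated counts per gene name, made with kallisto 0.44.0 (build GRCm38.p6, both from the submitters' processing notes) and tximport, without normalisation or filter. The deposited counts were divided by column totals to give CPM, which corrects for depth and not for gene length, so levels of single genes are compared between libraries. Of the 36144 names, 14902 had no count and 26 rows had date-like names (2 of these names repeated) and were dropped. Intervals are exact Clopper-Pearson intervals at the 95% level on the pair of counts. Reads carry no molecular identifiers, so they cover counting error only.

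Positions, exon lengths, GC content and shared 31-base stretches came from GENCODE vM21 (GRCm38) by symbol, which may not be the authors' transcriptome. Scaling factors were computed with DESeq2 1.42.0 and edgeR 4.0.16 in R 4.3.3. All other steps were written in Python 3.11.15 (scipy 1.17.1 for the intervals, pandas 2.3.3 and numpy 2.4.6 for the tables, matplotlib 3.10.9 for the plots) and tested on simulated data. No model with p-values was fitted.

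Named genes were the 12 with the highest smaller ratio, the 10 with the highest mean CPM, the 6 with the largest excess at each time, the 4 on either side of the threshold, and members on the lists. Others were named after their values were seen. The members, lists and rule were chosen with earlier results of these data known. Alternatives were other scalings, pseudocount, filters, thinning, thresholds and leaving out genes of low uniqueness. Some genes among the members and lists are not reported here by name.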

Additional observations from a re-analysis of the deposited data

Results flagged for a closer look

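Among the genes of the 5 lists described gene by gene, 7 that were not raised at both times had ratios of opposite sign at 48 h and 72 h, each with a counting interval that excluded 0. The 5 lists held 77 such genes, and the same was not counted over all expressed genes. With 1 library per condition the difference between the times was not tested. The intervals are those under column totals, and Stat2 had the bounds nearest 0, −0.0016 at 48 h and 0.021 at 72 h. With DESeq2 size factors the median of all expressed genes at 72 h went from 0.051 to −0.0007. That shift is larger than the 72 h bound of Stat2, so its place among the 7 depends on the scaling. H2-Q2 had log2 ratios of 0.89 at 48 h and −0.42 at 72 h, a difference (72 h minus 48 h) of −1.31. H2-T3 had 0.55 and −0.70, a difference of −1.25. Both belong to the class I list, as does H2-Q4, which had −0.23 and 0.22, a difference of 0.45. Of the interferon-induced list, Ifit1 had −0.87 and 0.64 on 79, 48, 49 and 68 counts, a difference of 1.51, and Stat2 had −0.16 and 0.20, a difference of 0.36. Of the Notch list, Notch1 had −0.67 and 0.30, a difference of 0.97, and Hes6 had −0.12 and 0.29, a difference of 0.41. No group had enough libraries to look for a sample that stands apart.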

How the results depend on the processing

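The set depends most on the filters and the threshold, and on the pseudocount where untreated levels are low. DESeq2 size factors and TMM each gave 164 genes, all among the 176, and totals without mitochondrial genes gave 187, of which 167 were among the 176. Thinning all libraries to the smallest total gave 172, of which 164 were. Under these settings the medians and shares stayed within their intervals. With a pseudocount of 1 CPM there were 107 genes with medians of 1.68 and 1.34, shares of 3.34%, 1.70% and 0.909% of expressed genes raised at 48 h, at 72 h and at both times, and 27.2% of the genes raised at 48 h were raised at 72 h. With a mean of 5 CPM or more there were 87 genes and shares of 2.48%, 1.48% and 0.821%. Without a mean CPM minimum there were 256 genes and shares of 6.07%, 3.93% and 1.82%, and 30.1% of the genes raised at 48 h were raised at 72 h and 46.5% in the opposite order. Under the filter of the methods, over 10 counts in 2 or more of the libraries, there were 370 genes, with a median of 1.58 at 72 h and shares of 6.98%, 4.86% and 2.65%. This filter admits genes that pass through the butyrate libraries alone. At a log2 ratio of 1.5 there were 63 genes, medians of 2.41 and 2.02, shares of 1.95%, 0.884% and 0.535%, and 27.5% of genes raised at 48 h were raised at 72 h. With the lower bound of the counting interval at 1 or more there were 84 genes, medians of 2.08 and 1.87, shares of 2.56%, 1.17% and 0.714%, and 27.9% of genes raised at 48 h raised at 72 h. Leaving out the 9 genes with under 50% unique sequence, an alternative chosen after the data were seen, left 167 genes. The median change from 48 h to 72 h stayed within the same kind of interval over genes in every setting. The Notch list median at 72 h was −0.0131 with DESeq2 size factors and −0.0142 with TMM, against 0.04. For single named genes, 703 of 740 values under other settings lay within the counting interval, the other 37 were with the pseudocount of 1 CPM, and none changed sign. No paired analysis was possible by replicate number because each condition has 1 library. The ratios compare libraries within a time, and a model of treatment plus time over the 4 libraries was not fitted, since the same ratios chose the genes. Without replicates, no ratio can be set against the spread between cultures, and genes near the threshold or with few counts are the least certain. A gene listed at 0 allows up to 3 counts.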
